A study of Mus musculus with 24 samples.

Results

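The genes described here encode the 6 sarcomeric myosin heavy chain isoforms Myh3, Myh8, Myh1, Myh2, Myh4 and Myh7. They were picked by gene symbol from 23279 named genes on a whole-transcript mouse array, each with 1 probe set, and were followed through muscle regeneration in satellite cells and endothelial cells. Mouse tibialis anterior muscle was injured with cardiotoxin, a snake venom toxin that destroys myofibres, and taken on days 2, 4 and 8. Day 0 was the same muscle without injury, and it is the control of both cell types. Satellite cells, the stem cells of muscle, were sorted as CD45-, Sca1-, CD31-, CD34+ or CD34 low, alpha7 integrin+ cells, and endothelial cells as CD45-, Sca1+, CD34+, CD31+ cells, with 3 arrays for each of the 8 combinations of cell type and day. The labels give no strain, genotype or age, and say of the 3 samples of a group only that they are biological replicates, so p-values measure the spread between these samples.

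Myosin heavy chain is the motor protein of the thick filament, and the isoform a fibre makes sets how fast it contracts. Myh3 (embryonic) and Myh8 (neonatal) are made by developing fibres and again, for a time, by fibres newly formed after injury. Adult fibres carry Myh7 (slow, type I), Myh2 (fast, type IIa), Myh1 (fast, type IIx) or Myh4 (fast, type IIb), and mouse tibialis anterior is a fast muscle in which the fast types predominate. Satellite cells at rest are mononucleate and make no sarcomeres; they turn the contractile genes on as they differentiate and fuse.

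Of the 6 genes, 5 lie in one cluster on chromosome 11, in the order Myh3, Myh2, Myh1, Myh4, Myh8 in the GRCm38.p6 annotation, and Myh7 lies elsewhere. RefSeq gives the 250 bases before the annotated start of each gene, and these windows are shown as a description. The windows of Myh8, Myh1, Myh2 and Myh4 share a run of 14 bases, which was looked for after the sequences had been read. The 84 bases of each gene that hold it are written 5′ to 3′ on the plus strand, with the shared run (the later block of capitals) and any match to the MEF2 motif (the earlier block) in capitals.
Myh8 (chr11:67277010-67277093): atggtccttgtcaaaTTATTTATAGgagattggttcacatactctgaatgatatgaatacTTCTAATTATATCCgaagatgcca
Myh1 (chr11:67199882-67199965): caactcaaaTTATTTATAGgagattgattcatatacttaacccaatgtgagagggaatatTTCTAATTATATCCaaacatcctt
Myh2 (chr11:67170842-67170925): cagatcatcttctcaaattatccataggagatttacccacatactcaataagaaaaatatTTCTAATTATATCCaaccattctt
Myh4 (chr11:67237594-67237677): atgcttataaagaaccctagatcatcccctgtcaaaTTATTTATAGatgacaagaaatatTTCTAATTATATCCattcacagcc
The shared run TTCTAATTATATCC begins 54 bases before the start of Myh8, 160 before Myh1, 125 before Myh2 and 158 before Myh4. Among 32851 promoter windows of the same length it was in 4 (0.0122%), those of these 4 genes. The run was taken from these 4 windows, so their place in that count was fixed beforehand and the share measures no specificity. The MEF2 motif, searched on both strands like the others, was in 2.92% of all windows and in those of Myh8, Myh1 and Myh4. The Myh3 window did not hold the run or the MEF2 motif. It is printed whole, again on the plus strand, with its E-box (letters CANNTG, found in 66.2% of all windows) in capitals.
Myh3 (chr11:67078050-67078299): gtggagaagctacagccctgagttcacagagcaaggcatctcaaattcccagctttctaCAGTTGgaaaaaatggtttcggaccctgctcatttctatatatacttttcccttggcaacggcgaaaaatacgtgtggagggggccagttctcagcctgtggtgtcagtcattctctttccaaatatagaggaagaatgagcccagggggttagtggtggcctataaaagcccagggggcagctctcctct
E-boxes were also found before Myh8, Myh4 and Myh7, so the motif does not set Myh3 apart. The CArG box (1.47% of windows) was found before Myh4, and the MCAT motif (letters CATTCC, 12.6% of windows) before Myh1, Myh4 and Myh7. No searched motif overlapped the shared run. A match is a run of letters and no evidence that a factor binds there. Among the 4 genes with the shared run, Pearson's r between levels over the 24 arrays ranged widely. It ran from 0.21 (Myh2 and Myh4) to 0.88 (Myh1 and Myh4). A link between these sequences and the levels was not tested.

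The deposited values are log2 intensities, and the median of an array lay between 4.11 and 4.40. The level of one probe set cannot be set against that of another, so each gene is compared only with itself. The coding sequences of these isoforms are alike enough that a probe set may also bind another member's transcript, and the probe sequences were not used here, so the split between the adult fast isoforms is uncertain. In a sorted population, more cells making a transcript and more transcript per cell cannot be told apart. Markers of other cells ran through both sorts. The mean of 12 leukocyte markers in satellite cells was 3.57 to 4.09 on day 0, 9.40 to 10.8 on day 2, 7.05 to 8.04 on day 4 and 5.19 to 6.45 on day 8, and the mean of 20 myofibre genes other than myosin heavy chains ran from 6.29 to 9.70 in satellite cells and from 4.56 to 6.60 in endothelial cells. Satellite cell markers (10 genes) averaged 8.63 to 8.91 on day 0 and 5.03 to 5.33 on day 2. Endothelial markers in satellite cells had 6, 4 and 4 of 10 called higher than on day 0 on days 2, 4 and 8. Of all genes tested, 20.5%, 12% and 6.38% were called in either direction on those days. A pair of satellite arrays stood apart from their groups, day 2 replicate 2 with a mean of 10 endothelial markers of 8.76 against 6.67 and 7.19, and day 8 replicate 1 with a myofibre mean of 7.56 against 9.53 and 9.70. The part of these other transcripts in the results below was not tested.

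Myh3, the embryonic isoform, was the member that rose most clearly. In satellite cells its level was 2.81, 2.80 and 2.53 on day 0 (replicates 1, 2 and 3) and 2.82, 3.19 and 2.75 on day 2. On day 4 it was 7.78, 5.59 and 6.21, and on day 8 it was 4.09, 4.04 and 5.86. All 3 arrays of day 4 and all 3 of day 8 lay above every array of day 0, as did those of 16.8% (day 4) and 14.6% (day 8) of all genes tested against day 0. The highest array of day 8 lay above the lowest of day 4.

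**Figure D1:**
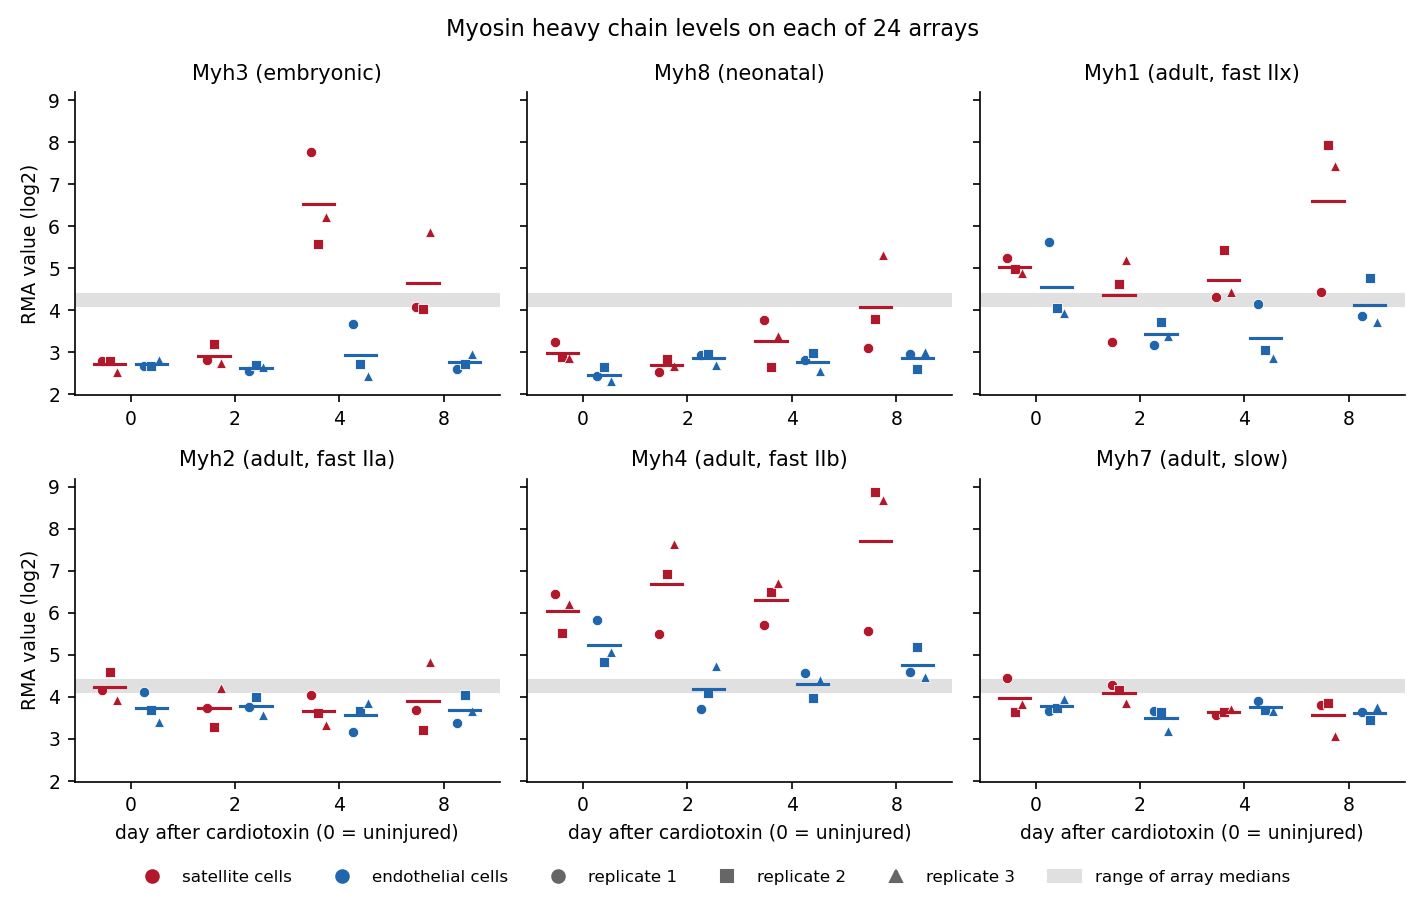
RMA log2 level (vertical axis) of each of the 6 isoforms against the day after cardiotoxin (horizontal axis), with 1 point for each of the 24 arrays, a bar at the mean of 3, and a grey band for the range of array medians (4.11 to 4.40). Myh3 in satellite cells reached 5.59 to 7.78 on day 4, while Myh1 and Myh4 had 2 high arrays and 1 low array on day 8.

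Changes were tested with limma over 14064 genes, those whose signal exceeded the median of the array 3 times or more. A gene is called at a Benjamini-Hochberg adjusted p under 0.05 with a log2 difference of at least 1. Of the 6 members, 4 were tested: Myh3, Myh1, Myh2 and Myh4. Myh8 was above the median on 1 array and Myh7 on 2, so both are described by their values. Myh3 itself was above the median on 4 arrays, the 3 satellite arrays of day 4 and day 8 replicate 3, so it entered the tests only through the groups where it is high. Each day was set against the same 3 day 0 arrays of its cell type, so those comparisons share their controls.

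On day 4 Myh3 in satellite cells was higher than on day 0 by 3.81 (SE 0.45, 95% interval 2.88 to 4.75, limma adjusted p = 4.72e-06). With no filter on dim probe sets the adjusted p was 1e-05. The day 0 values lay far under the array medians, so no fold is given. Myh3 was the 1 member called of 4 tested, in a comparison where 12% of all genes tested were called and 6.53% were called as higher. On day 2 no member was called in satellite cells by limma, none had an unadjusted p under 0.05, and 20.5% of all genes were called. The Myh3 difference between day 2 and day 0 was 0.21 (95% interval -0.73 to 1.15). Between day 2 and day 4 Myh3 rose by 3.60 (limma adjusted p = 1.03e-05), and it was again the only called member, with 10.5% of all genes called. With each array left out in turn the day 4 difference ranged from 3.19 to 4.28 and kept its call.

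On day 8 Myh3 was still higher than on day 0, by 1.95 (SE 0.45, limma adjusted p = 0.00755, and 0.012 with no filter), and 1 of the 4 tested members was called where 6.38% of all genes were. That call rested on replicate 3, the highest of its group: without it the difference was 1.35 with adjusted p = 0.0642. From day 4 to day 8 Myh3 fell by 1.86 (limma adjusted p = 0.0348), the only called member in a comparison where 1.68% of all genes were called and 0.519% were called as lower. The ranges of these groups overlapped. The fall lost its call without day 4 replicate 1 (adjusted p = 0.184) or replicate 3 (0.0593), without day 8 replicate 1 (0.11) or replicate 2 (0.19), and without the filter on dim probe sets (0.0555).

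In endothelial cells Myh3 stayed near the bottom of the scale. Its 12 values ran from 2.45 to 3.67, with a median of 2.69, and the highest was day 4 replicate 1. On day 0 the difference, satellite minus endothelial, was -0.02 (95% interval -0.96 to 0.92). On day 4 satellite cells were higher by 3.58 (limma adjusted p = 8.07e-06) and on day 8 by 1.90 (adjusted p = 0.00424). On both days the groups did not overlap, as in 15.4% and 16.3% of all genes. The change from day 0 to day 4 was itself larger in satellite cells than in endothelial cells, by 3.60 (SE 0.64). The limma adjusted p was 0.0017, and 0.00301 with no filter. Myh3 was the 1 member called in that test of the difference, in which 4.24% of all genes were called. For day 8 the same test gave 1.92 (95% interval 0.59 to 3.24, limma adjusted p = 0.136), and no member was called where 2.2% of all genes were, although Myh3, Myh1 and Myh4 had unadjusted p-values under 0.05.

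Myh8, the neonatal isoform, was dim throughout and highest on day 8. Satellite cells had 3.24, 2.88 and 2.86 on day 0, 2.53, 2.85 and 2.68 on day 2, 3.77, 2.66 and 3.40 on day 4, and 3.11, 3.81 and 5.31 on day 8. Only day 8 replicate 3 passed its array's median, and that array was also the highest of its group for Myh3 and for Myh2. The day 8 mean lay 1.08 above that of day 0, and the groups overlapped. In endothelial cells its 12 values ran from 2.31 to 3.01. On day 0 all 3 satellite arrays already lay above all 3 endothelial arrays, by 0.53 on average (limma adjusted p = 0.436 with no filter). All 3 satellite arrays of day 8 were above all 3 endothelial arrays of that day, by 1.22 on average, as in 16.3% of all genes tested. In a fit of all named genes with no filter that difference had a limma adjusted p of 0.0343, and the day 8 against day 0 difference one of 0.0957.

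Myh4, the type IIb isoform, was above the array median on 21 of 24 arrays, all 12 of satellite cells and 9 of endothelial cells. Satellite cells had 6.45, 5.51 and 6.20 on day 0, 5.50, 6.93 and 7.65 on day 2, and 5.71, 6.51 and 6.72 on day 4. On day 8 they had 5.56, 8.87 and 8.69. Replicates 2 and 3 of day 8 were the highest of the 24 arrays, while replicate 1 was within the range of day 0. Against day 0 the differences were 0.64 (95% interval -0.68 to 1.96) on day 2, 0.26 (-1.06 to 1.58) on day 4 and 1.65 (0.34 to 2.97, limma adjusted p = 0.115) on day 8, none of them called. Without day 8 replicate 1 the day 8 difference was 2.73 with adjusted p = 0.000999, and it was then called.

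In endothelial cells Myh4 was lower on average on each day after injury than on day 0, without a call. The values were 5.82, 4.84 and 5.06 on day 0, 3.72, 4.10 and 4.74 on day 2, 4.58, 3.98 and 4.39 on day 4, and 4.60, 5.18 and 4.48 on day 8. The arrays of day 2 and of day 4 lay below all 3 of day 0, as did those of 14% and 13.9% of all genes tested. The differences of -1.05 on day 2 and -0.92 on day 4 were not called, with adjusted p of 0.364 and 0.496. On day 0 the difference between the cell types was 0.81 (95% interval -0.50 to 2.13) and no member was called, none with an unadjusted p under 0.05, where 17% of all genes were called. Satellite cells then exceeded endothelial cells by 2.51 on day 2 (limma adjusted p = 0.00847), by 2.00 on day 4 (adjusted p = 0.0325) and by 2.95 on day 8 (adjusted p = 0.00187), with no overlap on any of the 3 days (11.2% of all genes on day 2). The counts of called members were 1 on day 2, 2 on day 4 and 3 on day 8 of 4 tested, against 12.1%, 12.9% and 13.9% of all genes. The day 2 call was lost without satellite replicate 3 (adjusted p = 0.0657), and the day 4 call without endothelial replicate 1, 2 or 3 or satellite replicate 2 or 3 (adjusted p up to 0.111).

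The test of whether Myh4 changed differently in the 2 cell types gave 1.69 (95% interval -0.17 to 3.56) for day 2, where no member was called or had an unadjusted p under 0.05 and 11.5% of all genes were called. It gave 1.18 (-0.68 to 3.05) for day 4 and 2.14 (0.28 to 4.00, limma adjusted p = 0.258) for day 8. None of these differences between the cell types in the course of Myh4 was called.

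**Figure D2:**
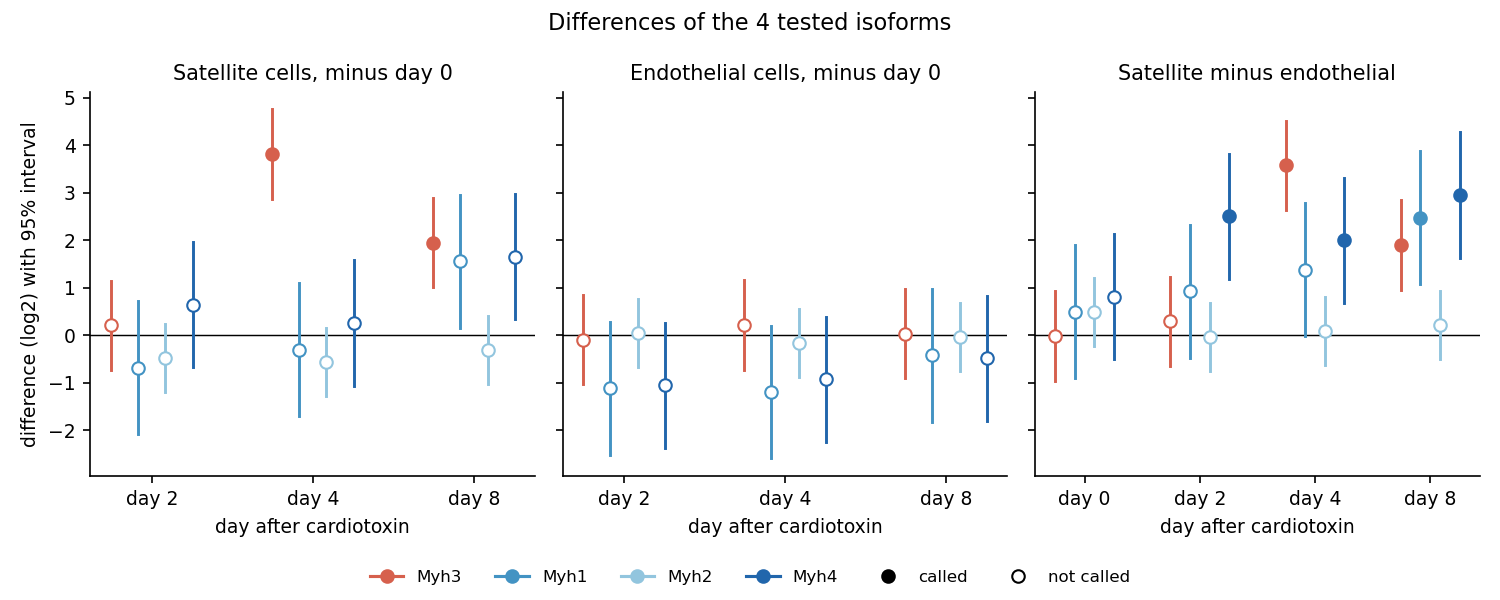
Log2 differences (vertical axis) of the 4 tested isoforms with 95% intervals, for each day against day 0 in satellite cells (left) and endothelial cells (middle) and for satellite minus endothelial cells on each day (right). Filled points passed the test; against day 0 these were Myh3 in satellite cells on days 4 (3.81) and 8 (1.95).

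Myh1, the type IIx isoform, was split on day 8 in the same way as Myh4. In satellite cells it was 5.24, 4.99 and 4.90 on day 0, 3.25, 4.63 and 5.19 on day 2, 4.32, 5.43 and 4.44 on day 4, and 4.44, 7.93 and 7.43 on day 8. On day 8 replicates 2 and 3 were above every other array, and replicate 1 was below all 3 arrays of day 0. Its day 8 difference from day 0 was 1.56 (95% interval 0.16 to 2.96, limma adjusted p = 0.169), not called. Leaving out day 8 replicate 1 gave 2.64 with adjusted p = 0.00385.

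Endothelial cells had Myh1 at 5.63, 4.06 and 3.94 on day 0, 3.17, 3.72 and 3.40 on day 2, 4.14, 3.05 and 2.86 on day 4, and 3.86, 4.78 and 3.73 on day 8. The day 2 arrays lay below those of day 0, as did those of 14% of all genes tested. Differences from day 0 of -1.11 on day 2 and -1.20 on day 4 were not called, with limma adjusted p of 0.366 and 0.367. Both rested in part on day 0 replicate 1, the highest of its group, and without it they were -0.57 and -0.65. Across the 3 endothelial comparisons with day 0 no member was called and none had an unadjusted p under 0.05, where 6.73%, 5.33% and 2.05% of all genes were called on days 2, 4 and 8. On day 4 satellite cells lay above endothelial cells in Myh1 by 1.38 (limma adjusted p = 0.186), which was not called. They did so without overlap, as in 15.4% of all genes tested. On day 8 they exceeded endothelial cells in Myh1 by 2.48 (limma adjusted p = 0.0114), although 1 satellite array fell inside the endothelial range. This call was lost without satellite replicate 2 (adjusted p = 0.0867) or replicate 3 (0.067).

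Myh2 was called in none of the 15 comparisons, and Myh7 was not tested. Myh2, type IIa, was 4.17, 4.60 and 3.92 in satellite cells on day 0, 3.73, 3.28 and 4.22 on day 2, 4.04, 3.61 and 3.34 on day 4, and 3.69, 3.22 and 4.84 on day 8, and 3.18 to 4.13 in endothelial cells. Its values on each day overlapped those of day 0 in both cell types, and its differences from day 0 in satellite cells were -0.49 (95% interval -1.20 to 0.23), -0.57 (-1.28 to 0.15) and -0.31 (-1.03 to 0.40). It was above the array median on 3 of 24 arrays. Myh7, the slow isoform and also a heavy chain of the heart, was 4.46, 3.64 and 3.84 in satellite cells on day 0, 4.28, 4.17 and 3.85 on day 2, 3.58, 3.64 and 3.71 on day 4, and 3.82, 3.85 and 3.07 on day 8. Endothelial cells had Myh7 values of 3.18 to 3.94, and the values of both cell types lay mostly under the array median.

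Ordered by mean level, Myh3 ran from satellite day 4 (6.53 ± 1.13, SD, n = 3) to satellite day 8 (4.66 ± 1.04), and then dropped by more than the spread to endothelial day 4 (2.95 ± 0.64). The ranges of the first and second of these groups overlapped, as did those of each later neighbour in the order down to endothelial day 2 (2.63 ± 0.08). For Myh4 the order was satellite day 8 (7.71 ± 1.86), day 2 (6.69 ± 1.10), day 4 (6.31 ± 0.54) and day 0 (6.05 ± 0.48), followed by endothelial day 0 (5.24 ± 0.52), and the ranges of neighbours overlapped throughout that stretch. Myh1 put satellite day 8 (6.60 ± 1.89) and satellite day 0 (5.04 ± 0.18) first and had the same overlap between them.

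The contrast between developmental and adult isoforms was taken as a change from day 0, array by array, since changes can be averaged over probe sets where levels cannot. On day 4 in satellite cells the mean change of Myh3 and Myh8 was 2.05 ± 0.83 (SD, n = 3), and that of Myh1, Myh2, Myh4 and Myh7 was -0.24 ± 0.20. The first exceeded the second by 3.34, 1.30 and 2.22 on the 3 arrays. The developmental pair was thus ahead on each array of day 4. Most of it came from Myh3, as the contrast was 4.05 with Myh3 alone and 0.52 with Myh8 alone.

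On day 8 the contrast was 1.19, -0.07 and 1.55, and the change of the adult isoforms -0.45, 1.14 and 1.18. The 2 positive adult values came from Myh1 and Myh4, neither of which was called against day 0. The mean differences of Myh2 and Myh7 from day 0 were -0.31 and -0.40. On day 2 the contrast was 0.46, 0.24 and -0.54, on either side of 0. In endothelial cells it was 0.76 ± 0.12 on day 2, 0.84 ± 0.27 on day 4 and 0.49 ± 0.41 on day 8, with adult changes below 0 (-0.60 ± 0.14, -0.58 ± 0.18 and -0.28 ± 0.28). The endothelial day 0 arrays themselves ran from -0.53 to 0.32 (SD 0.46), and the day 8 contrast ranged from 0.23, without day 0 replicate 1, to 0.72, without day 8 replicate 2.

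**Figure D3:**
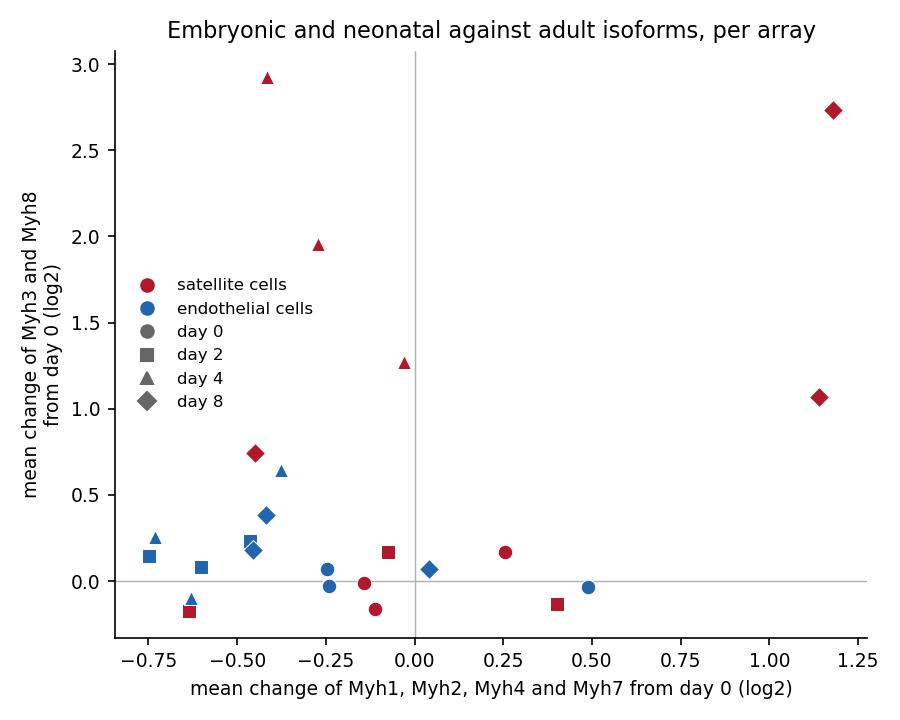
Mean change from day 0 of Myh3 and Myh8 (vertical axis, log2) against that of Myh1, Myh2, Myh4 and Myh7 (horizontal axis, log2), 1 point per array, coloured by cell type and shaped by day. The 3 satellite arrays of day 4 lie high and left of 0 on the horizontal axis, and 2 of the 3 of day 8 lie at 1.14 and 1.18 on it.

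Among the members, the closest pair across the 24 arrays was Myh1 and Myh4 (Pearson's r = 0.88, Spearman's rho = 0.86, and r = 0.87 over the 12 satellite arrays). The arrays share their sorts, days and amplification, and related probe sets may share signal. Myh3 and Myh4 gave r = 0.10 over the satellite arrays, and Myh3 and Myh8 gave 0.55. Among the 14060 tested genes that are no member, the profiles most like that of Myh4 were those of Tcap (r = 0.94), a titin cap protein of the Z-disc, Mb (0.93), the oxygen store myoglobin, and Ckm (0.92), muscle creatine kinase. The same 3 genes came first for Myh1, with 0.91 for Tcap, 0.92 for Mb and 0.88 for Ckm. For Myh3 they were Ttn (0.92), the giant spring protein of the sarcomere, Dclk1 (0.92), a microtubule-linked kinase, and Slc38a4 (0.92), an amino acid transporter. For Myh2 they were Smim1 (0.72), Cox6b2 (0.71) and Hmgcs1 (0.66). Spearman's rho was lower for the 3 genes named for Myh3 (0.62, 0.67 and 0.72) than for those of Myh4 (0.91, 0.91 and 0.90). It was 0.79 to 0.85 for the genes of Myh1 and 0.66 to 0.68 for those of Myh2.

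The isoform levels were also set against the mean of the 20 myofibre genes, which holds Ckm, Mb and Ttn and no myosin heavy chain. Over the 24 arrays r was 0.90 for Myh4, 0.84 for Myh1 and 0.65 for Myh3, and over the 12 endothelial arrays it was 0.68, 0.66 and 0.10. Over the 12 satellite arrays it was 0.81 for Myh4, 0.84 for Myh1, 0.55 for Myh3 and 0.80 for Myh8. Myh8 gave 0.67, Myh2 0.16 and Myh7 -0.02 over the 24 arrays. Replicate 1 of satellite day 8, low in Myh1 and Myh4, had the lowest myofibre mean of its group (7.56 against 9.53 and 9.70) and the highest satellite cell marker mean (8.35 against 7.60 and 7.54). It also had the lowest endothelial marker mean (6.85 against 8.14 and 7.63), so the 2 arrays high in Myh1 and Myh4 were higher in those markers too. Replicate 1 had the highest leukocyte marker mean of the group (6.45 against 5.19 and 6.42). Its Myh3 value of 4.09 was close to the 4.04 of replicate 2. On day 4 the myofibre mean was 7.71, 7.96 and 7.89, above all 3 arrays of day 0 (6.77, 6.50 and 6.82), while Myh4 overlapped between those days.

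**Figure D4:**
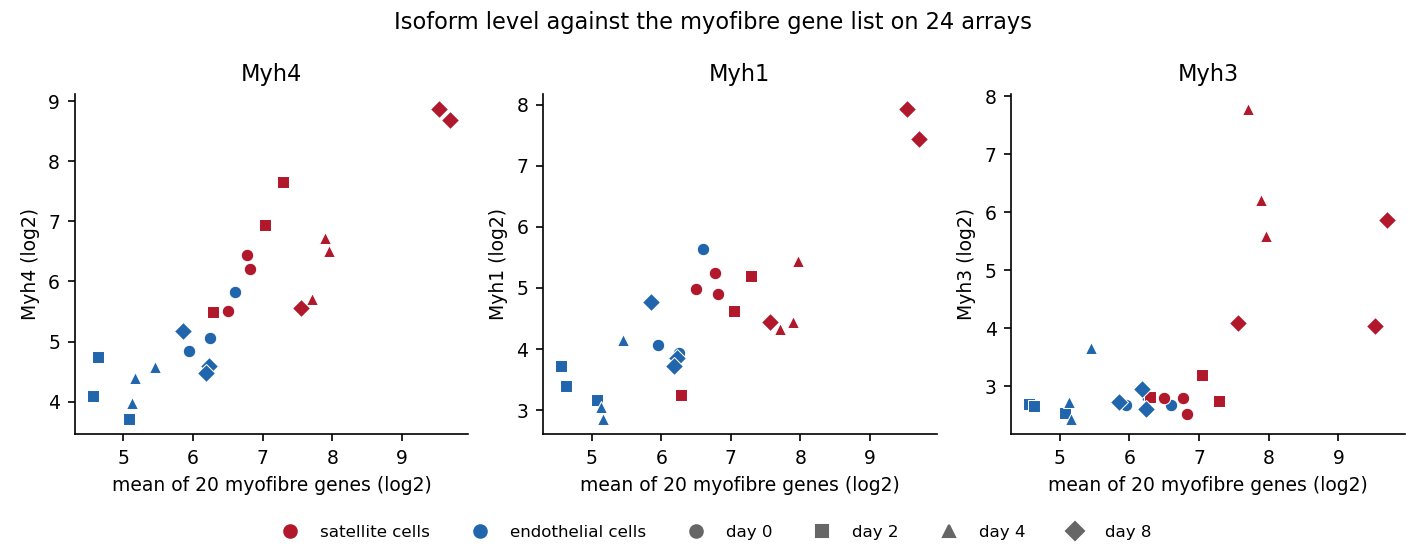
Levels of Myh4, Myh1 and Myh3 (vertical axes, log2) against the mean of 20 myofibre genes (horizontal axes, log2) on the 24 arrays, coloured by cell type and shaped by day. Myh4 and Myh1 are highest on the 2 arrays whose myofibre mean is 9.53 and 9.70, and Myh3 is highest on the day 4 arrays, whose mean is 7.71 to 7.96.

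The partners of the heavy chains in the sarcomere were taken from lists by role, chosen like the members with earlier results of these data known. Of all genes tested in satellite cells against day 0, 9.67% were called lower on day 2, 6.53% higher on day 4 and 4.38% higher on day 8, and the counts below are to be read against these shares. Contractile and junction genes of developing muscle (10 genes, all tested) had 8 called higher and 0 lower in satellite cells on day 4, with a median difference of 2.86 against 0.01 for all genes tested. On day 8 the count was 5 higher and 0 lower (median 0.93), and between day 4 and day 8 it was 0 higher and 2 lower (median -0.78). On day 2 the list had 3 genes lower. Tnnt2, the cardiac and embryonic troponin T, was 6.77, 4.50 and 4.58 on day 0 and 10.7, 10.1 and 10.3 on day 4, a rise of 5.08 (limma adjusted p = 3.1e-07). Actc1, the cardiac actin that developing skeletal muscle also makes, fell by 1.69 by day 2 (adjusted p = 0.025) and was 3.90 above day 0 on day 4 (adjusted p = 3.34e-05). Myl4, the embryonic and atrial essential light chain, rose by 2.63 by day 4 (adjusted p = 0.000395). On day 8 Tnnt2, Actc1 and Myl4 were still called, at 4.26, 4.75 and 2.39 above day 0. None of these genes was called between day 4 and day 8.

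Fast fibre partners (10 genes, all tested) had 3 called higher on day 4 (median 1.20) and 9 on day 8 (median 2.57), with 0 called on day 2. Mylpf, the fast regulatory light chain that sits on the neck of the heavy chain, was 7.74, 7.38 and 8.52 on day 0, 10.2, 10.2 and 10.0 on day 4, and 9.82, 11.7 and 11.7 on day 8. It was thus up on every array from day 4 on, by 2.27 on day 4 (limma adjusted p = 0.00598) and by 3.20 on day 8 (adjusted p = 0.000593). Mybpc2, the fast myosin-binding protein C, was 3.06, 3.22 and 3.68 on day 0 and 3.00, 4.33 and 2.97 on day 4. On day 8 it was 4.41, 8.11 and 8.30, with the same low replicate 1 as Myh1 and Myh4, and it rose by 3.62 (adjusted p = 0.0014). Slow fibre partners (8 of 10 tested) had 3 higher and 1 lower on day 4 and 4 higher on day 8. Tnnc1, the slow and cardiac troponin C, rose by 3.59 by day 4 (adjusted p = 3.67e-05) and fell by 2.87 from day 4 to day 8 (adjusted p = 0.00351). Csrp3, the muscle LIM protein, was 3.23 above day 0 on day 8 (adjusted p = 0.0071).

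The 20 myofibre genes as a list had 8 called higher on day 4 and 17 on day 8, with medians of 1.20 and 2.33, and 2 lower on day 2. Ttn rose by 3.51 by day 4 (limma adjusted p = 7.42e-08) and Neb, the ruler of the thin filament, by 3.21 (adjusted p = 1e-07). Acta1, the adult skeletal actin, rose by 2.10 by day 4 (adjusted p = 0.00344) and was 2.86 above day 0 on day 8. Ckm differed from day 0 by 0.11 on day 4 (adjusted p = 0.93) and rose by 2.38 by day 8 (adjusted p = 0.00491). Within this list, then, Ttn and Neb were already up on day 4 as Myh3 was, and Ckm passed the test first on day 8. In endothelial cells 11 of the 20 were called lower on day 2 (median -1.42) and 2 on day 4 (median -1.01). Of all genes, 6.73% and 5.33% were called there in either direction on those days.

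Among sarcomeric light chains and myosin-binding proteins (9 of 11 tested), 3 were called higher on day 4 and 6 on day 8, with 1 lower on day 2. The genes for folding myosin and building the thick filament (9 of 12 tested) had 2 higher and 1 lower on day 4 and 4 higher on day 8. Unc45b, the chaperone that folds the myosin head, differed by 0.46 (limma adjusted p = 0.246) on day 4 and by 0.65 (adjusted p = 0.12) on day 8. Smyd1, a methyltransferase needed for thick filament assembly, was called on day 8 (1.12, adjusted p = 0.00652), and its day 4 difference of 0.93 (adjusted p = 0.0142) was short of the size required. Trim55, a ubiquitin ligase of the sarcomere, rose by 1.39 by day 4 (adjusted p = 0.000115) and was 2.44 above day 0 on day 8 (adjusted p = 2.79e-07).

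Of other myosin heavy chain genes (4 of 8 tested), Myh11, the smooth muscle isoform, was the one called against day 0 in satellite cells. In satellite minus endothelial cells, the non-muscle isoforms Myh10 on day 2 (-1.23, limma adjusted p = 0.0152) and Myh9 on day 8 (-1.16, adjusted p = 0.000466) were called as lower. There Myh11 was called as higher on day 0 (3.01, limma adjusted p = 0.000378) and on day 8 (3.41, adjusted p = 0.000167). Myh11 was 10.2, 10.6 and 10.7 in satellite cells on day 0, 6.72, 8.31 and 6.48 on day 2, 6.42, 6.31 and 6.20 on day 4, and 9.25, 9.20 and 8.88 on day 8. It fell by 3.32 by day 2 (limma adjusted p = 0.000126) and by 4.18 by day 4 (adjusted p = 2.26e-05), and was 2.80 higher on day 8 than on day 4 (adjusted p = 0.00968). Its lowest mean thus fell on day 4, when that of Myh3 was highest. The mean of 10 pericyte and smooth muscle markers, which include Myh11, was 9.60 to 10.4 on day 0 and 6.52 to 8.19 on day 2. It was 7.00 to 7.31 on day 4 and 8.57 to 9.34 on day 8. The group means of this list were 7.10 on day 2 and 7.18 on day 4, so it was already low on day 2. Whether pericytes or smooth muscle cells entered the satellite sort was not tested.

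Myogenic regulators (14 of 16 tested) had 5 genes lower on day 2, 2 higher on day 4 and 1 higher on day 8. Of all genes, 9.67% were called lower on day 2, and 6.53% and 4.38% higher on days 4 and 8. The counts of days 4 and 8 were too small to set the list apart, while that of day 2 was above the share of all genes. Myog, the factor that starts terminal differentiation, was 5.23, 5.76 and 5.35 on day 0, 9.72, 9.66 and 9.83 on day 4, and 10.3, 10.5 and 10.4 on day 8. Day 8 replicate 1, low in Myh1 and Myh4, was close to the other arrays for Myog. The gene rose by 4.29 by day 4 (limma adjusted p = 2.19e-08) and 4.98 by day 8. Six4, a homeobox factor that acts on fast muscle genes, rose by 1.32 by day 4 (adjusted p = 0.000901). Myod1, the myogenic determination factor, differed from day 0 by -0.78 on day 2 (adjusted p = 0.0471), -0.05 on day 4 and 0.36 on day 8, and was not called. Fusion genes (7 of 8 tested) had 3 lower on day 2, 4 higher on day 4 and 2 higher on day 8. Mymk (myomaker) rose by 5.10 by day 4 (adjusted p = 3.65e-09) and Mymx (myomerger) by 1.90 (adjusted p = 2.25e-05). Both membrane proteins, which act in the joining of myoblasts, were at 5.35 and 1.88 above day 0 on day 8.

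**Figure D5:**
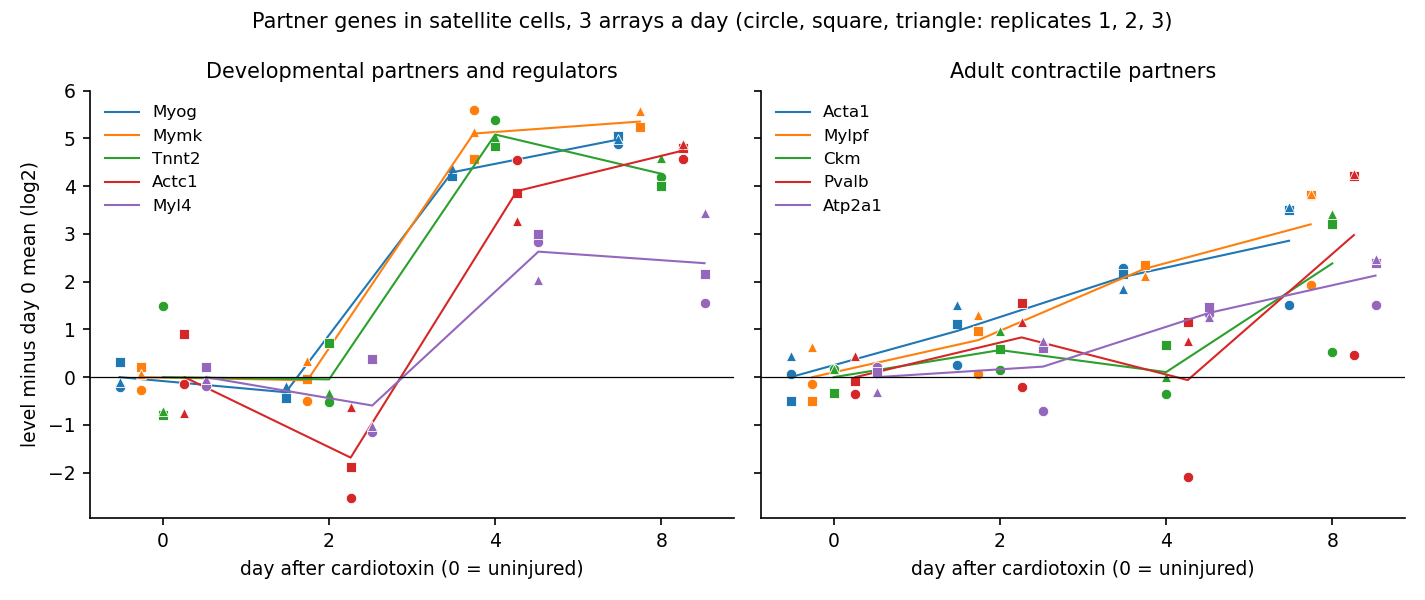
Levels in satellite cells minus the day 0 mean (vertical axis, log2) of 5 developmental or regulatory genes (left) and 5 adult contractile genes (right) against the day after cardiotoxin (horizontal axis), with 1 point per array and lines through the means. Myog, Mymk, Tnnt2, Actc1 and Myl4 are high on day 4. Of the adult contractile genes, Acta1 (2.10) and Mylpf (2.27) are also up on day 4, while Ckm, at 0.11, is not.

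The genes that neighbour the cluster on chromosome 11 are given for comparison, with no test. Sco1, a mitochondrial copper chaperone next to Myh3, had group means from 4.76 to 5.86. The long non-coding RNA gene 2310065F04Rik, between Myh3 and Myh2, had means from 2.85 to 3.65, and Myh13, the extraocular isoform beyond Myh8, had means from 2.36 to 2.81. In satellite cells the group means of Myh13 were 2.78, 2.70, 2.36 and 2.81 on days 0, 2, 4 and 8, with the lowest on day 4.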

How the data were processed

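RNA from the sorted cells was amplified from picogram amounts and hybridised to Affymetrix MoGene 2.0 ST arrays, per the labels' protocols. The deposited values are log2 intensities, normalised with RMA per the submitters' processing notes; the genome build behind the probe sets is not given in the sources used here. Array number and signal limit the precision, since arrays carry no read depth. Probe sets were named through GEO's platform annotation (23281 of 24479), keeping the probe set with the highest mean per symbol. Groups were taken from sample titles, because the cell type field disagreed with the title in 12 and the time point field in 18 of 24 samples. All 8 groups were fitted in 1 model with limma 3.58.1 in R 4.3.3 (lmFit and eBayes, two-sided, 16 residual degrees of freedom), on the 14064 genes above the array median on at least 3 arrays, with Benjamini-Hochberg adjustment over all of them; the scripts were tested on simulated data.

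Members and lists were chosen with earlier results of these data known. Named genes are the 6 members, the 3 genes most correlated with each tested member, and from each list the 2 genes with the largest called change in satellite cells on day 4 or 8, plus Myod1, Myog, Mymk, Tnnt2, Actc1, Myl4, Acta1, Mylpf, Ckm, Unc45b, Smyd1 and Myh11. The chromosome 11 neighbours, Myh9 and Myh10 were added after seeing the data. Promoter windows are from RefSeq (GRCm38.p6) and matched all 6 members; Myh7 has 2. Satellite and endothelial arrays of a day share a number in the array name in 11 of 12 cases, and no label says that a number marks a shared animal or day. The deviations correlated above 0.1 in 4 of 12 pairs by replicate number in the titles, and in 4 of 11 by array name number. The correlations ran from -0.06 to 0.20 in both, so neither number was taken to mark pairs. Alternatives were another filter, array centring, an intensity trend, array weights, replicate blocks, fits of only the groups compared, no minimum difference, and each array left out.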

Additional observations from a re-analysis of the deposited data

Results flagged for a closer look

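The change of Myh3 from day 0 to day 4 differed between the cell types by 3.60 (SE 0.64, limma adjusted p = 0.0017). With no filter on dim probe sets the adjusted p was 0.00301. Myh3 entered the filtered tests only through satellite arrays where it was high, and no endothelial array had it above the median. Satellite cells changed by 3.81 and endothelial cells by 0.22, and the difference ran from 2.97 to 4.07 with each array left out in turn. It is listed because the same contrast gave different sizes in the cell types by a test of the difference itself. All 3 satellite arrays of day 4 (5.59 to 7.78) were above every endothelial array (2.45 to 3.67). No group had the number of arrays needed to test single arrays as outliers.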

How the results depend on the processing

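Counts below are of called members out of 4 tested by limma. The call of Myh3 on day 4 against day 0 and day 2 in satellite cells, against endothelial cells, and in the difference between the cell types held under every alternative that kept Myh3 in the tests. Requiring a level above the median on at least 6 arrays removed Myh3 and Myh2. The counts then were 0 for satellite day 4 against day 0, day 8 against day 0, day 4 against day 2, day 8 against day 4 and the day 4 difference between cell types, and 1 for satellite minus endothelial cells on day 4. With no filter that count was also 1 (Myh4 adjusted p = 0.0548), and the count for day 8 against day 4 was 0. With array weights the count for day 8 against day 0 was 2 (Myh4 2.05, adjusted p = 0.0281), for day 8 against day 4 it was 0 (Myh3 adjusted p = 0.127), and for the day 8 difference between cell types 1 (Myh3 adjusted p = 0.0419). Myh1 was then also called in satellite minus endothelial cells on day 4 (1.74, adjusted p = 0.0439). Fitting only the groups compared gave 0 for day 8 against day 0 (Myh3 adjusted p = 0.0558) and 0 for day 8 against day 4 (0.309), and Myh1 lost its day 8 call against endothelial cells (0.0696). The cause was not tested.

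Leaving out both satellite arrays that stood apart, an alternative chosen after seeing the data, gave 3 for day 8 against day 0 (Myh1 adjusted p = 0.00411, Myh4 0.00109), 2 for day 8 against day 4 (Myh1 and Myh4, while Myh3 was at 0.0996) and 2 for the day 8 difference between cell types. With each array left out in turn the counts ranged from 0 to 3 for satellite day 8 against day 0, 0 to 2 for day 8 against day 4, 0 to 1 for satellite minus endothelial cells on day 2, 1 to 2 on day 4, and 0 to 2 for the day 8 difference between cell types. The isoform contrast in endothelial cells on day 2 ranged from 0.49 to 0.92, and was 0.51 with Myh3 alone and 1.01 with Myh8 alone; in satellite cells on day 4 it was 4.05 and 0.52. No member changed direction in a called comparison under these alternatives.

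The replicate block gave the same counts in all 15 comparisons, for example 1 for satellite day 4 against day 0, with number as a fixed or a random term (consensus correlations 0.04 and 0.05). The mean over probe sets of a symbol was not run, since each member has 1. Over all genes, the count for satellite day 8 against day 4 moved from 236 to 412 with array weights, 56 in a fit of only those groups and 471 without both arrays. The fit of only those groups also gave 581 in place of 897 for day 8 against day 0, 635 in place of 1483 for day 4 against day 2, and 785 in place of 1706 for satellite minus endothelial cells on day 2. Array weights gave 459 in place of 289 for endothelial day 8, and 2443 in place of 1614, 1047 in place of 596 and 512 in place of 310 for the differences between cell types on days 2, 4 and 8. Signal near the array median limits Myh8, Myh2 and Myh7.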
